A study of Mus musculus with 12 samples.

Results

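The transcripts described here carry the biotype processed_transcript in the gene models that were used to read RNA-seq libraries of the mouse nucleus accumbens (NAc), a reward region of the ventral striatum. Every transcript with this word in the biotype column was taken, which gave 3283 of the 87740 transcripts (3.74%), in 2425 of 35406 loci, under 2438 gene names and with 10566 exons. The libraries came from 4 groups of 3 pools each. Repeated cocaine was 7 daily intraperitoneal injections of 20 mg/kg, and its control was 7 days of saline. Acute cocaine was 6 days of saline followed by 1 injection of 20 mg/kg, and its control was again 7 days of saline. All animals were C57BL/6 mice of 8 to 10 weeks, the tissue was taken 24 hours after the last injection, and each pool held NAc of 3 to 5 animals, so that no library is 1 animal. The models name none of the 12 libraries and hold no value per library. The levels of these transcripts, their response to cocaine, the depth of each library and the agreement of the tissue with its marker genes could therefore not be examined, and what follows describes exon structure, position and sequence.

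In the Ensembl and HAVANA annotation, a processed transcript is an RNA for which no open reading frame was accepted. The word covers RNAs of unlike kinds, among them antisense RNAs, RNAs of the intergenic space, hosts of small RNAs and copies of coding genes that have lost their frame. An antisense RNA is read from the strand opposite to a coding gene and can share exon sequence with it. A divergent RNA starts close to the start of a coding gene and runs away from it, as happens at many CpG-rich promoters. Coding loci were here the loci with transcripts that carry a p_id, the protein identifier of the Cufflinks package, and the 2042 transcripts of the biotype lincRNA served as the nearest comparison. No processed_transcript member carried a p_id.

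In the divergent pairs the sequence between the 2 starts is upstream of both RNAs, so it is shown for 7 of them, from the closest pairs and those with a synaptic or developmental partner. Each run is read on the member's strand of mm9. Capitals mark the 20 bases at each end that are transcribed, on the left those of the coding partner (as its reverse complement, ending with its start) and on the right the first bases of the member.
Gm13093 and Slc2a5, chr4:149493353-149493411, minus strand: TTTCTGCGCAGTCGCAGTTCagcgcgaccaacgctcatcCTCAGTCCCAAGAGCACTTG
Gm15100 and Gm15085, chrX:145882109-145882179, minus strand: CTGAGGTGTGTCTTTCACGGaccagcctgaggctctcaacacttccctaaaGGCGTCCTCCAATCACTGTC
Gm16208 and Vps4a, chr8:109555069-109555141, minus strand: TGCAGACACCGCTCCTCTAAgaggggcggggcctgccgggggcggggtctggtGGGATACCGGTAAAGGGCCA
6720416L17Rik and Hoxd1, chr2:74600934-74601056, minus strand: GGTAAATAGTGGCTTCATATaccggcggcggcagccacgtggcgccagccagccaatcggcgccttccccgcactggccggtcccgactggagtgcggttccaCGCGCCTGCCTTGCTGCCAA
Gm14965 and Nrxn2, chr19:6418587-6418750, minus strand: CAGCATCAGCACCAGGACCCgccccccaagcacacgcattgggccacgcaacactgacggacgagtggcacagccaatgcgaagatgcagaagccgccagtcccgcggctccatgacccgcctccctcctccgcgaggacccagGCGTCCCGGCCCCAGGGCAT
Gm12446 and Foxe1, chr4:46356284-46356500, minus strand: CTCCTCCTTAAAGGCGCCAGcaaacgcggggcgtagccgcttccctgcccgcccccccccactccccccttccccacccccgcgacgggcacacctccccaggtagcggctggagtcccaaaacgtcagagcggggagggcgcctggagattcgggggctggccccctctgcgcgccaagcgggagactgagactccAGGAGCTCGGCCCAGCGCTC
Gm14662 and Sox3, chrX:58146586-58146847, plus strand: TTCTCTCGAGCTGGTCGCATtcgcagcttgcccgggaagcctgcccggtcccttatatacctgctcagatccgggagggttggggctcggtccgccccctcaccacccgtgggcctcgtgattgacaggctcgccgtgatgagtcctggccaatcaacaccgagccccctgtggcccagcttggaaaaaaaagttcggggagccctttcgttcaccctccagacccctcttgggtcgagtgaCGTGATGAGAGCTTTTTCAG
The gaps differ in length, so their CpG counts are given with the distance between the starts. The gap held 16 CpG at Foxe1 (178 bases), 14 at Sox3 (223 bases) and 11 each at Nrxn2 (125 bases) and Hoxd1 (84 bases). It held 3 each at Slc2a5 (20 bases) and Vps4a (34 bases), and 0 between Gm15100 and Gm15085 (32 bases). The GC content of the gap was 84.8% at Vps4a, the highest of those shown, and 51.6% at Gm15085, the lowest. The letters GGGCGG, a GC box searched on both strands, stood in the gaps at Vps4a, Foxe1 and Sox3, and the letters TATAAA in none of those shown.

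Other members carry small RNAs, and for these the mature miRNAs, taken from RefSeq (GRCm38), are the sequences that matter. Hairpins were matched to mm9 by their letters on the member's own strand, not by position, and 25 of the 1005 hairpins of the RefSeq table lay in 21 members of 14 gene names. Capitals mark the seed, bases 2 to 8, through which a miRNA recognises its targets, and only 1 arm of each hairpin is printed. The miR-17 cluster lay in Mir17hg on chromosome 14, miR-200a, miR-200b and miR-429 in Gm13648 on chromosome 4, and miR-141 and miR-200c in Gm15884 on chromosome 6.
mmu-miR-17-5p: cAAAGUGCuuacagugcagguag
mmu-miR-20a-5p: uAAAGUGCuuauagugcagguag
mmu-miR-18a-5p: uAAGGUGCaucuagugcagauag
mmu-miR-19a-3p: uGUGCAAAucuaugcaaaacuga
mmu-miR-19b-3p: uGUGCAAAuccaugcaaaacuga
mmu-miR-92a-3p: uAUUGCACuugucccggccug
mmu-miR-200a-3p: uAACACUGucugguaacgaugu
mmu-miR-141-3p: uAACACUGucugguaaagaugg
mmu-miR-200b-3p: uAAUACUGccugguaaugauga
mmu-miR-200c-3p: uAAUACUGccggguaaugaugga
mmu-miR-429-3p: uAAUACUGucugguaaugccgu
Within the cluster, miR-17 and miR-20a shared a seed, and miR-19a and miR-19b shared another. In the miR-200 family, whose members are known in epithelial cells, miR-200a and miR-141 shared 1 seed and miR-200b, miR-200c and miR-429 the other, so that each of the members Gm13648 and Gm15884 held miRNAs of both seeds.

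Against coding loci, 1466 members (44.7%) overlapped a coding locus on the other strand by at least 1 base, 156 (4.75%) had no such overlap and started within 1000 bases of a coding start on the other strand, running away from it, and 1661 (50.6%) were apart. Of the lincRNA transcripts, 999 (48.9%) were antisense, 396 (19.4%) divergent and 647 (31.7%) apart. These are complete counts of the models with no sampling error, and transcripts of 1 locus share exons and are not independent, so no test between the biotypes was run. The antisense members came from 1147 loci, the divergent ones from 116 and those apart from 1231, and a locus can appear under more than 1 of these.

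**Figure D1:**
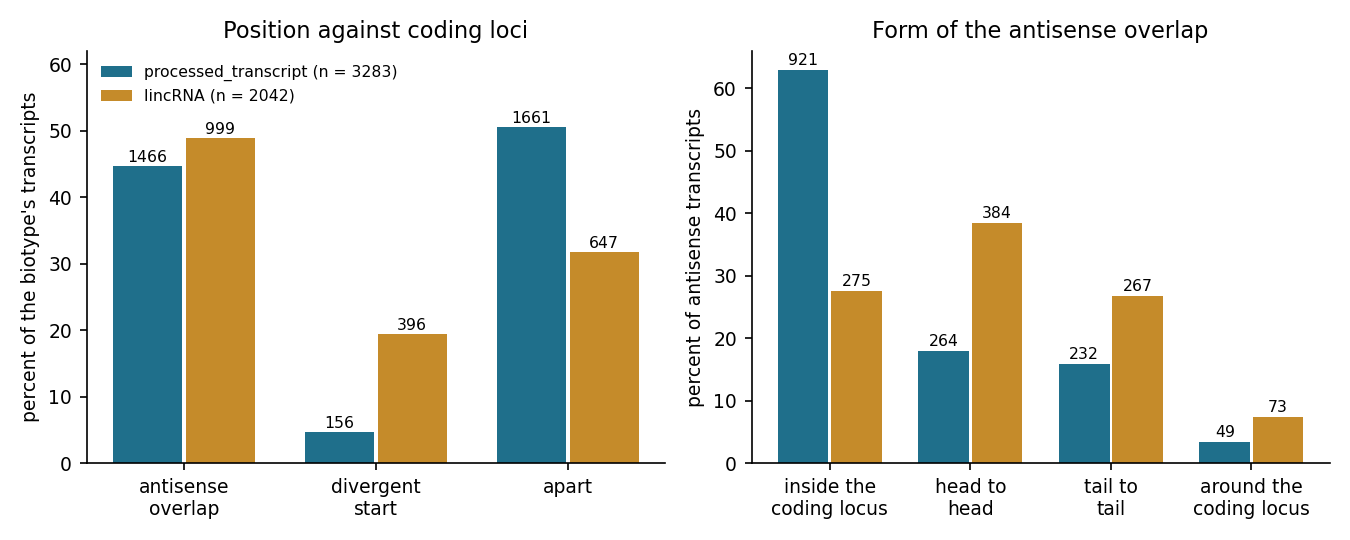
Position of processed_transcript members and lincRNA transcripts against coding loci. The left panel gives the percent of each biotype's transcripts that overlapped a coding locus on the other strand, started divergently or lay apart; the right panel gives the form of the overlap as percent of the antisense transcripts. Numbers over the bars are transcripts. Divergent starts made up 4.75% of processed_transcript members and 19.4% of lincRNA transcripts, and 921 of 1466 antisense members lay wholly inside the coding locus.

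Antisense members mostly lay inside the coding locus. Of the 1466, 921 (62.8%) lay wholly within it, 264 (18%) overlapped it head to head, 232 (15.8%) tail to tail and 49 (3.34%) reached past it on both sides. Of the 999 antisense lincRNA transcripts, 275 (27.5%) lay within, 384 (38.4%) were head to head, 267 (26.7%) tail to tail and 73 (7.31%) around. The coding genes with an antisense member had a median span of 48871.5 bases over 1092 gene names, and those with a member wholly inside had 83219.5 bases over 680, against 14798 bases over all 22504 coding gene names placed on 1 chromosome. The members had a median overlap of 3348 bases in span.

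Overlap in span did not always mean overlap in exons. Exons of 770 antisense members (52.5%) overlapped coding exons on the other strand, with a median of 166 shared bases, while the other 696 (47.5%) shared no base with coding exons. Among lincRNA transcripts, exons overlapped in 763 of 999 (76.4%). By form, exon overlap was found in 188 of 232 tail-to-tail members (81.0%), 170 of 264 head-to-head members (64.4%), 390 of 921 members within (42.3%) and 22 of 49 around (44.9%).

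Against the partner with the largest overlap in span, the members with the longest exon overlaps lay mostly tail to tail. Gm15944, which lay inside Echdc1, was the exception among the 5 longest. A130049A11Rik, a single exon of 4046 bases on chromosome 3, shared 2425 bases with exons at Rsbn1 and Phtf1. 4833422C13Rik shared 1914 bases with Ssbp2 and Acot12. Both values are sums over 2 partners, since A130049A11Rik also started inside Phtf1 and 4833422C13Rik inside Acot12, head to head. Gm12940, from the locus of Sfpq, shared 1709 bases with Zmym1, B630019A10Rik 1582 bases with BC106179, and Gm15944, from the locus of Rnf146, shared 1564 of its 1729 bases with Echdc1. Each of these values is a length of shared exon sequence, not a level of RNA.

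This sharing bears on what the libraries could resolve. The library protocol fragmented poly(A)-selected RNA, primed it at random and describes no step that marks the strand, so reads from exon bases that 2 loci share cannot be assigned by strand. Exon bases shared with a transcript of any other locus, on either strand, were present in 815 of 1466 antisense members (55.6%), exceeded 50% of the exon bases in 174 (11.9%) and made up all of them in 33. They were present in 8 of 156 divergent members and 90 of 1661 members apart. Over all members, 2370 of 3283 (72.2%) shared no exon base with another locus. Bases shared with transcripts of the member's own locus were not counted. Of the 154 members in a locus with coding transcripts, 102 overlapped coding exons on the same strand.

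Genes of the synapse were among the partners. Of 29 synaptic genes with a p_id, 5 had an antisense or divergent member (17.2%), against 1183 of 22507 coding gene names in all (5.26%). In this and the later gene lists, a member with antisense overlap was counted only at the genes it overlapped, not at a divergent partner. The synaptic genes of the list were also long, with a median span of 117856 bases, and no test of any gene list was run. Nrxn2, a presynaptic adhesion protein, had the most members: Gm14965 with a divergent start 125 bases away, shown above, and Gm14964 and Gm14967 antisense to its far part. The 2 transcripts of Gm14964 shared 163 and 44 exon bases with Nrxn2, and the transcript of Gm14967 shared 129. Grin1, the obligatory subunit of NMDA receptors, was overlapped by E130003G02Rik, which had 4 exons and 2891 bases and shared 1307 of them with Grin1 exons on the other strand. Grin2b, another NMDA receptor subunit, had Gm14329 with 143 shared exon bases and Gm14330 with none. The postsynaptic scaffold Shank2 had Gm14372, wholly inside it and with no shared exon base.

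Genes of the cocaine response and the striatum were also compared. Of 29 immediate early and cocaine-related genes with a p_id, 3 had a member (10.3%), and of 23 striatal genes 1 did (4.35%), against 5.26% of all coding gene names. Jun, a subunit of the AP-1 transcription factor, was paired with BC042782, a locus of 8 members that each had a TSS group of its own, a TSS group being transcripts that start together. In 1 of the 8 the start lay inside Jun and 232 exon bases were shared, in another the start was 729 bases from that of Jun, and the other 6 were apart. Gm11750 lay within Rbfox3, a neuronal splicing regulator, Gm10485 within Dnmt3a, a DNA methyltransferase, and Gm12158 within Ebf1, a transcription factor of striatal neurons, and these 3 members shared no exon base with their partners.

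Developmental transcription factors had members on both sides of their starts. Of 175 such genes with a p_id, 21 had a member (12%, against 5.26% of all coding gene names). Of the 21, 18 had antisense members and 5 had divergent members. The median span of the 175 genes was 5035 bases, below that of all coding genes. Most of the 21, such as Pax5, Pax6, Sox3 and the Hoxb genes, lay on chromosomes 2, 4, 11 and X. Those chromosomes had 23.7 loci with members per 100 coding loci, against 6.56 on all others, and the comparison made no allowance for this. Neighbouring genes were each counted, also where 1 member overlapped both, as at Hoxb5 and Hoxb6. The Hox clusters, which pattern the body axis, held several. Hoxb3os had 6 members, each antisense to Hoxb2 or Hoxb3, with 128 to 416 shared exon bases, and 0610040B09Rik had 2 members, of which 1 reached around Hoxb5 and Hoxb6 and the other started inside Hoxb5 and reached around Hoxb6. Both transcripts of 5730446D14Rik were tail to tail with Hoxa3, with 390 and 503 shared bases. The transcript with 390 also started 843 bases from a coding start on the other strand that lay outside Hoxa3. Among genes of forebrain and eye, Pax6os1 had 2 members that ran head to head from inside Pax6 with no shared exon base, and Dlx6os1 had 3, of which 1 reached around Dlx6 with no shared exon base and 2 were apart. The single exon of Dlx6as, listed as a gene of its own, shared 104 bases with Dlx6. Gm16764 was the extreme, since 2 of its 3 transcripts lay in full on exons of other loci, at Nkx1-2 and inside the models of Fgfr2, which reach over 3009069 bases here.

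The 156 divergent members started close to their partners. The distance between starts had a median of 145 bases (quartiles 95.75 and 243.25) and was at most 250 bases in 117 (75%). In the 396 divergent lincRNA transcripts the median was 169 bases, and 272 (68.7%) were within 250 bases. The closest pairs were Gm13093 with the fructose transporter gene Slc2a5 at 20 bases, Gm15972 with Mapre2 at 28, Gm15100 with Gm15085 and Gm15086 with Gm10439 at 32 each, and Gm16208 with Vps4a, an ATPase of the ESCRT pathway, at 34. Gm15100 and Gm15086 had the same spliced sequence of 573 bases with 0 differing bases, and their start regions, printed once above, were identical too, so reads cannot tell these 2 members apart. Tmem134 had 15 members, the most of any locus, and 14 of them were among the 156 divergent members. Ankzf1 had 6 members that started 212 to 237 bases from Atg9a, a gene of autophagy, and 1 member apart from it.

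Antisense members could also start close to a coding start. A coding start on the other strand also lay within 1000 bases, upstream or downstream, in 330 antisense members, with a median distance of 279.5 bases. With the divergent members, 486 members had such a start on either side. Among the nearest coding starts within 1000 bases in any direction, 286 of 3283 members had theirs on the other strand upstream and 190 on the other strand downstream, while 23 and 26 had theirs on the same strand upstream and downstream. The same-strand counts include coding starts of the member's own locus. A same-strand coding start of another locus lay within 1000 bases in 21 members. This last count is low in part by construction, since the Cufflinks package joins transcripts that share exon bases on 1 strand into 1 locus.

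**Figure D2:**
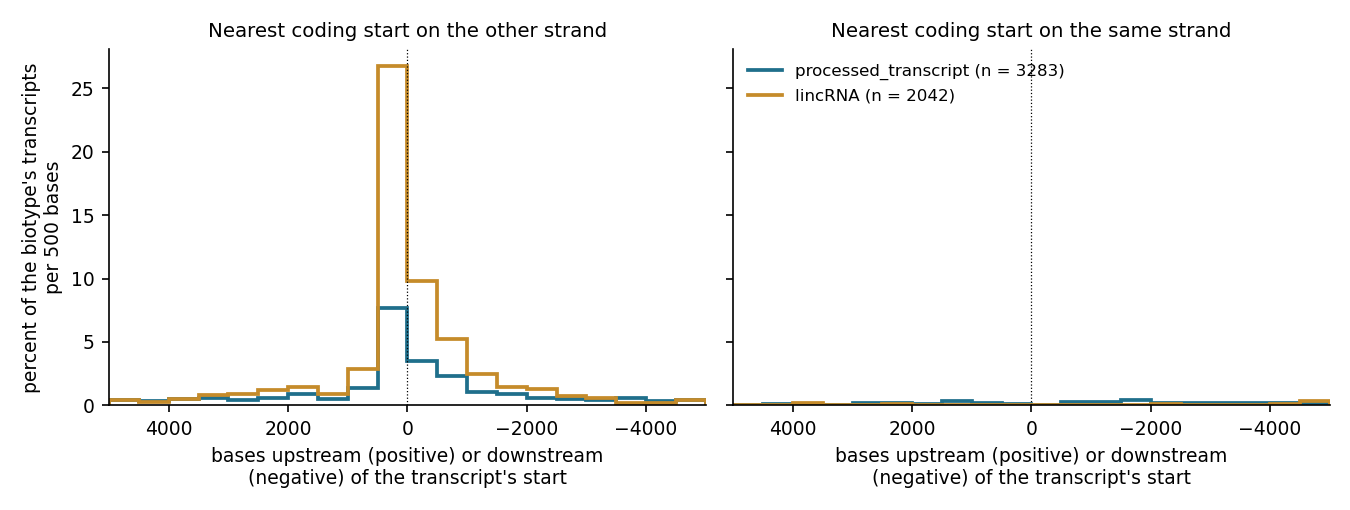
Distance from each transcript's start to the nearest coding start on the other strand (left) and on the same strand but of another locus (right), in steps of 500 bases, as percent of 3283 processed_transcript members and 2042 lincRNA transcripts. Positive values are upstream. The step just upstream on the other strand was the highest, with 7.65% of members and 26.7% of lincRNA transcripts.

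Of the 1661 members apart, 1025 (61.7%) lay more than 10 kb from any coding locus, 410 (24.7%) within 10 kb, 124 (7.47%) overlapping a coding locus on the same strand with no shared exon base, and 102 (6.14%) in a locus that also held coding transcripts. Those beyond 10 kb had a median distance of 52063 bases to the nearest coding locus. The farthest was 1700046C09Rik on chromosome 11 at 1658498 bases, followed by Gm11924 at 1464612, 4930554G24Rik at 1423826, 4930556G01Rik at 1327258 and Gm13470 at 1302139 bases. In all, 154 members shared a locus with coding transcripts, 20 of them under the name of its coding gene. Snhg3, a host of small nucleolar RNAs, was in the locus of Rcc1, and its 5 members also shared 47.6% to 100% of their exon bases with other loci, which include a lincRNA transcript on the other strand.

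The exon structure of members was simple. The median was 3 exons, as in lincRNA transcripts, against 7 in the 50689 transcripts with a p_id. Members of 2 exons numbered 1424 (43.4%), those of 3 exons 869 (26.5%) and those of 4 exons 473 (14.4%), while 67 (2.04%) had a single exon and 450 (13.7%) had 5 or more. Spliced length had a median of 681 bases (quartiles 489 and 1170.5) in members, 1458.5 in lincRNA transcripts and 1926 in transcripts with a p_id. The exons in the middle were alike in size and the last exon was not. The last exon had a median of 349 bases in members, 783.5 in lincRNA transcripts and 669 in transcripts with a p_id, and the middle exons had medians of 122, 129 and 124 bases.

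**Figure D3:**
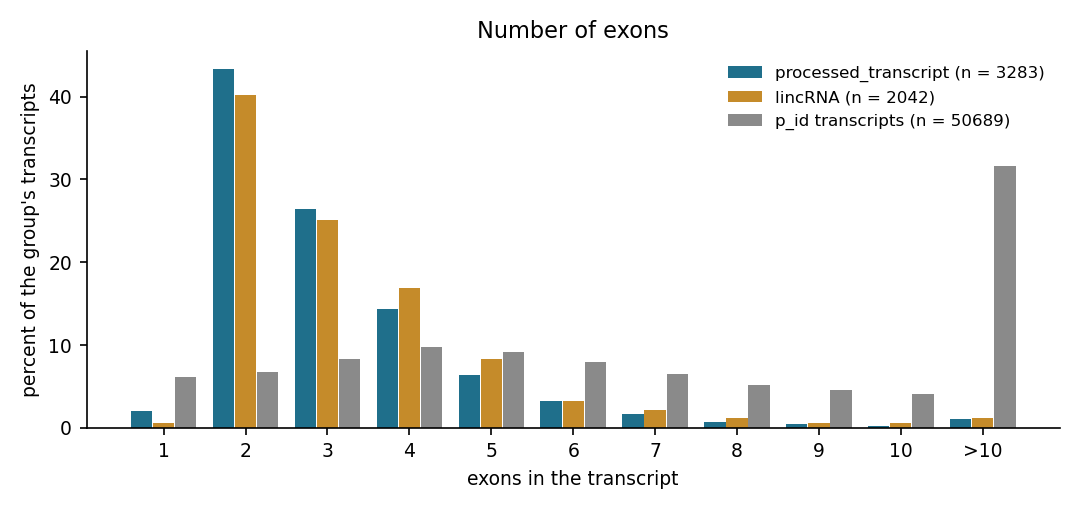
Number of exons per transcript in processed_transcript members, lincRNA transcripts and transcripts with a p_id, as percent of each group. Transcripts of 2 exons made up 43.4% of members, 40.2% of lincRNA transcripts and 6.75% of transcripts with a p_id, and those of more than 10 exons made up 1.10%, 1.18% and 31.6%.

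Length and span named different members. The longest spliced was Wnk3-ps, with 22 exons and 8551 bases, followed by Dnm3os, a single exon of 7928 bases inside Dnm3 on the other strand, and by Spag17 and Setd1b. The most exons were 49 in Spag17, a gene of motile cilia, and 41 in C4a, a near copy of the complement gene C4b, so that reads may not place uniquely between them. The widest spans belonged to RNAs with little exon sequence. Gm14643 on chromosome X spanned 605062 bases with 8 exons and 1848 bases of exon, Gm11867 spanned 484494, Gm13481 394698, Gm12648 336013 and Gm12132 329638 bases. Of the 2425 loci, 1904 (78.5%) had 1 member, 441 had 2 or 3 and 80 had 4 or more. Members of 297 loci (12.2%) started in at least 2 TSS groups, and 13 of the 2772 TSS groups of members were shared with transcripts that carry a p_id. After Tmem134, the loci with the most members were C4a with 9, Spag17 and BC042782 with 8 each, and Ankzf1 with 7.

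Starts of most members were poor in CpG, and those of the divergent members were not. Within 500 bases on each side of the start, the ratio of observed to expected CpG had a median of 0.248 in members, 0.544 in lincRNA transcripts and 0.562 in transcripts with a p_id, and it was above 0.6 in 426 of 3283 members (13.0%), 42.4% of lincRNA transcripts and 46.6% of transcripts with a p_id. By position, the median was 0.260 in antisense, 0.689 in divergent and 0.227 in apart members, and in lincRNA transcripts it was 0.525, 0.735 and 0.376. Divergent members lie near a coding start by the way the class is defined, and in 133 of 156 that start was within 500 bases. Among antisense members, the head-to-head form had a median of 0.431 and the form within a coding locus 0.239.

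**Figure D4:**
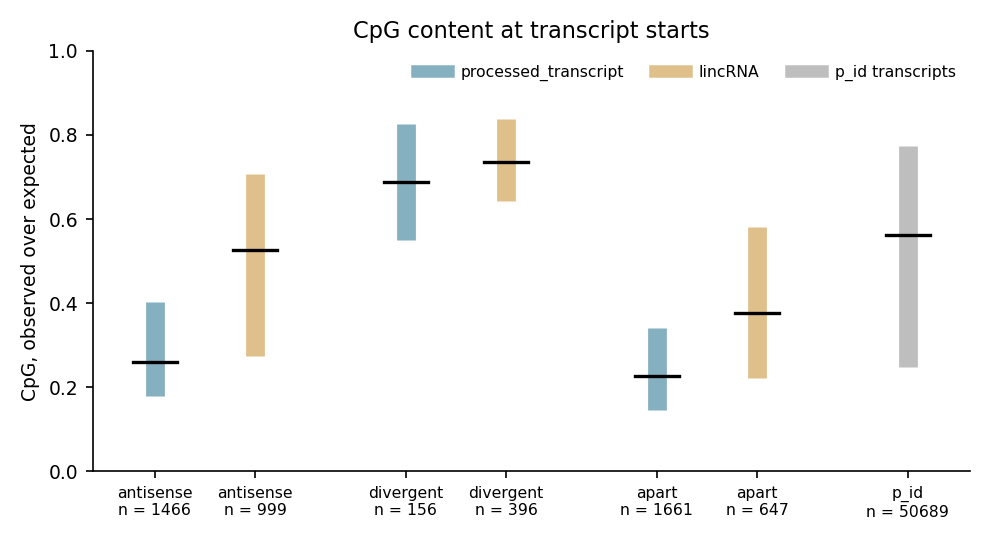
Ratio of observed to expected CpG within 500 bases on each side of the transcript start, by position, for processed_transcript members, lincRNA transcripts and all transcripts with a p_id. Bars run between the quartiles and black lines are medians. Divergent members had a median of 0.689, against 0.260 in antisense and 0.227 in apart members.

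The GC box followed the same order. In the 100 bases before the start, GGGCGG on either strand was present in 66 of 155 divergent members (42.6%), 10.4% of antisense members, 7.5% of members apart, 29.0% of lincRNA transcripts and 31.4% of transcripts with a p_id. TATAAA on either strand ran in the opposite order, with 0 of the 155 divergent members, 3.87% of antisense members and 6.17% of members apart. It was found before 4.85% of all members and 4.78% of transcripts with a p_id.

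A smaller share of members than of lincRNA or coding transcripts ended at a poly(A) signal. AATAAA or ATTAAA stood in the last 50 bases of 1243 members (37.9%), 50.5% of lincRNA transcripts and 52.7% of transcripts with a p_id, and by position the share was 38.8% in antisense, 40.4% in divergent and 36.8% in apart members. The last 50 bases of 5 well-known members show where the signal, in capitals, can stand.
H19, chr7:149761434-149761483, minus strand: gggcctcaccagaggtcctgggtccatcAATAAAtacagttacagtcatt
Snhg3, chr4:131907848-131907897, minus strand: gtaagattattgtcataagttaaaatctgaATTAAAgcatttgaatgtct
Pax6os1, chr2:105376237-105376286, minus strand: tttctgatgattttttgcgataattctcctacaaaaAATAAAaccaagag
Dlx6os1, chr6:6770546-6770595, minus strand: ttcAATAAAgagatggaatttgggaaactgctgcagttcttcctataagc
Mir17hg, chr14:115445900-115445949, plus strand: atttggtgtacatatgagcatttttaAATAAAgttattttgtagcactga
The signal began 22 bases before the end in H19, the imprinted RNA made from the maternal chromosome, 20 in Snhg3, 24 in Mir17hg, 14 in Pax6os1 and 47 in Dlx6os1. Of the 4 members of H19, 1 had a signal at its end, and of the 2 of Pax6os1, 1 did. The libraries were made from poly(A)-selected RNA, and the levels of members with and without a signal were not available to compare.

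Introns of members mostly had the ends of the major spliceosome. Of 7283 introns, 6915 (94.9%) ran from GT to AG and 165 (2.27%) from GC to AG, against 93.0% and 2.08% in lincRNA transcripts and 98.3% and 0.835% in transcripts with a p_id. A small set ran from CT to AC, which is GT to AG when read on the other strand. Such introns numbered 44 of 7283 in members (0.604%), 4 of 4912 in lincRNA transcripts (0.0814%) and 44 of 439667 in transcripts with a p_id (0.0100%). In 35 members, of 34 loci, every intron was of this kind, as in 2 lincRNA transcripts and 1 transcript with a p_id. The ends of the only intron are shown for 3 of these members, chosen after their values were seen for their neuronal partners, beside the first intron of Pax6os1 with its GT and AG. Each run is on the listed strand, with 6 exon and 14 intron bases and the end letters of the intron in capitals.
Gm14967 first end, chr19:6544680-6544699, minus strand: gatatcCTgacaacaatgac
Gm14967 last end, chr19:6543894-6543913, minus strand: gccaggaatcttACaaatgg
Gm11612 first end, chr11:97428082-97428101, plus strand: gcagccCTgggtgagggaca
Gm11612 last end, chr11:97437389-97437408, plus strand: cttactgggcctACctgcgg
Gm13780 first end, chr2:91935152-91935171, minus strand: ctttctCTgttcaacacaaa
Gm13780 last end, chr2:91883677-91883696, minus strand: tttcaagtactcACggatgg
Pax6os1 first end, chr2:105510379-105510398, minus strand: gttcagGTaaggtgctcaga
Pax6os1 last end, chr2:105438546-105438565, minus strand: cctcatattttcAGgtggca
Of the 35 members, 5 were antisense as listed, 1 divergent and 29 apart. With their strand turned, chosen as an alternative after the intron ends were seen, 11 would be antisense, 1 divergent and 23 apart. The 10 that overlapped a coding locus on its own strand would all become antisense, such as Gm15963 in Ntn4 and Gm16137 in Grhl2, examples chosen after their values were seen. Of the 5 antisense ones, Gm11612 at Srcin1 and Gm13780 at Phf21a would lie on the coding strand, as would 2 others. The strand of these members as listed is therefore uncertain, and so is the name antisense for Gm14967 at Nrxn2, which would be divergent when turned.

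Mir17hg showed another structure that is not splicing. Its longer member had 2 exons and 3536 bases, and all 6 hairpins of the miR-17 cluster lay inside an exon of it. Its other member had 6 exons of 84, 96, 82, 107, 87 and 80 bases, and each of these was, base for base, 1 hairpin of the cluster: miR-17, miR-18a, miR-19a, miR-20a, miR-19b-1 and miR-92a-1. The 5 gaps between them were 35 to 96 bases long, and none ran from GT to AG. This member is thus a chain of hairpins, and its exon count is not a count of spliced exons.

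The other hosts mostly held their small RNAs in exons or in introns. With the longer member of Mir17hg counted, hairpins lay inside an exon in 12 members and inside an intron in 8. Gm13648 is in both counts. In 1 member of E530001K10Rik miR-670 lay across an exon edge. The hosts other than Mir17hg, Snhg3, Snhg9 and H19 were chosen after their values were seen. Dnm3os held miR-199a-2 and miR-214 in its single exon, 2210403K04Rik held miR-22 and F630028O10Rik held miR-223, a miRNA of myeloid cells, both in exons. In H19, miR-675 was in an exon of 2 members and in an intron of another. A430104N18Rik held miR-142, a miRNA of blood cells, in an intron, and Gm12082 held miR-216a and miR-217. Small nucleolar RNAs, many of which guide the modification of other RNAs, lay within 18 members of 13 loci. Together with the miRNAs of the same models, small RNAs lay within 28 members (0.853%), against 40 lincRNA transcripts (1.96%). In Snhg3, Snora73b lay within each of the 5 members and Snora73a in 4, each 205 bases long, and Snhg9, itself inside Rps2 on the other strand, held Snora78 in its only intron. Gm11659, inside the gene of the microtubule protein tau, Mapt, had a small nucleolar RNA listed as SNORA25.2 in an intron. 4930486F22Rik, inside the synapsin gene Syn3, had one listed as SNORA73.11 in an intron. Of the 3 gene lists of known noncoding RNAs, 3 of 22 small RNA hosts, 1 of 12 RNAs of imprinting and the X chromosome and 2 of 26 nuclear and neural RNAs were members. The same lists had 5, 4 and 10 genes under the biotype lincRNA, among them Gas5, Meg3, Xist and Miat.

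Most members had only short frames. The longest open reading frame had a median of 57 codons in members, 70 in lincRNA transcripts and 322 in transcripts with a p_id, and reached 100 codons in 581 members (17.7%), 21% of lincRNA transcripts and 80.7% of transcripts with a p_id. At 300 codons, however, 52 members (1.58%) of 31 gene names remained, against 8 lincRNA transcripts (0.392%). The longest were 2320 codons in Spag17, 1985 in Setd1b, a subunit of a histone H3K4 methyltransferase, 1789 in Wnk3-ps and 1007 in C4a. Chosen after their values were seen, Rgsl1 had 1073 codons, Usp35 1009 and Gfi1, a transcriptional repressor of blood cells, 379. No transcript under any of these 7 names carried a p_id, so none counted as coding by the rule used here. GENCODE M1, the later release described below, listed Setd1b and Spag17 as protein coding genes. It also called the transcript of Setd1b with 1985 codons protein coding. In the same release C4a, Rgsl1 and Gfi1 were genes of the type processed transcript.

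A later release of the same annotation on the same build, GENCODE M1, sorted the members further. By transcript identifier, 3263 of 3283 were found in it, 3252 with the same first and last base. It called 1721 (52.4%) antisense, 1096 (33.4%) lincRNA, 249 (7.58%) processed transcript, 85 (2.59%) sense intronic, 46 (1.40%) retained intron and 16 (0.487%) protein coding. Of its 1721 antisense transcripts, 1292 (75.1%) overlapped a coding locus on the other strand here, 125 (7.26%) were divergent and 304 (17.7%) were apart, 194 of these within 10 kb of a coding locus. Of its 1096 lincRNA transcripts, 1021 (93.2%) were apart here and 70 were antisense. All 85 sense intronic transcripts were apart by the rules used here, 84 of them overlapping a coding locus on its own strand. Spliced length was alike in its 2 largest kinds, with medians of 670 bases in antisense and 678.5 in lincRNA.

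The members were spread unevenly over the chromosomes. Chromosomes 2, 4, 11 and X held 1740 of 3283 members (53.0%) but 25.4% of coding loci, and had 23.7 loci with members per 100 coding loci, against 6.56 on all others. Chromosome 4 had 27.5 and chromosome 19 had 3.52, and chromosome Y had no member. On these 4 chromosomes 61.6% of members were apart and 33.9% antisense, against 38.2% and 56.8% on the others. The source of the models moved with this difference. In GENCODE M1 the manual HAVANA annotation was the source of 98.7% of matched members on the 4 chromosomes and 97.3% on the others. For matched lincRNA transcripts these shares were 84.7% and 43.0%, and for matched transcripts with a p_id 85.4% and 59.9%. The part of the annotation source in the uneven spread was not tested.

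**Figure D5:**
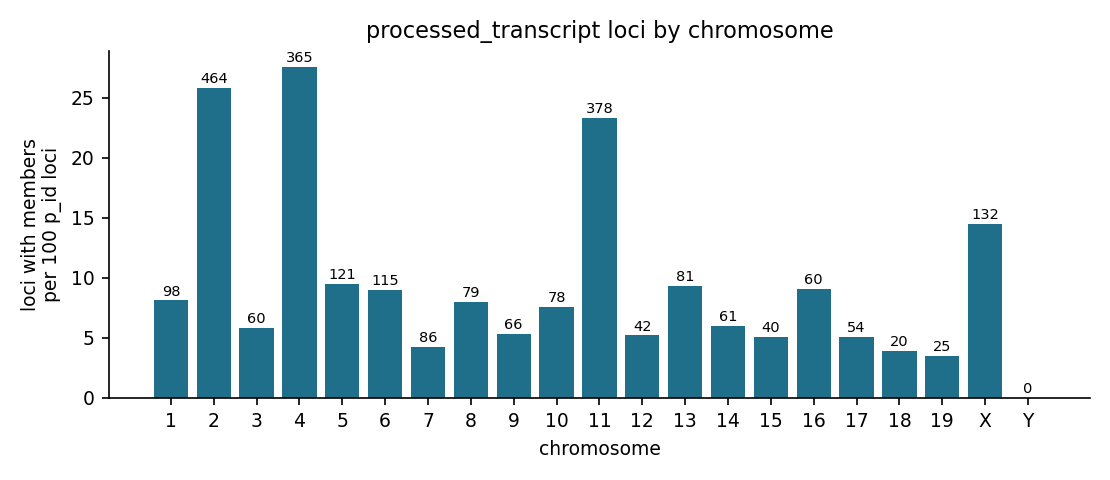
Loci with processed_transcript members per 100 coding loci, by chromosome. Numbers over the bars are loci with members. Chromosomes 2, 4 and 11 had 25.8, 27.5 and 23.3 and chromosome X had 14.5, and all other chromosomes were below 10.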

How the data were processed

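RNA-seq was made of 12 pools of mouse NAc, and the deposited gene models only were analysed. The authors made these from the Ensembl reference (NCBIM37, mm9) with the Cufflinks package. Per the submitters' processing notes TopHat, Cufflinks, Cuffdiff and CASAVA were used. Tool versions were not given in the sources used here. Gene models give exon positions without counts, so depth and precision per library are unknown. Members and gene lists were chosen with earlier results of these data known. A start was the first base of a transcript. Overlap used the span of the p_id transcripts of each locus. The text names members of the gene lists, members at listed partners, and the top 5 for length, span, exons, members per locus, closeness of divergent starts, exon overlap and distance. Exceptions are said to be chosen after their values were seen. Sequence came from NCBIM37, and transcript types from GENCODE M1 of that build. Promoter letters were searched with chromosome 18 left out. A frame ran from ATG to a stop on the transcript's strand. Python 3.11.15, numpy 2.4.6, pandas 2.3.3 and matplotlib 3.10.9 were used, and 17 of 17 tests on simulated models passed. Alternatives changed the overlap, window, coding set, members and thresholds. No test between groups of samples was possible. Some items are not reported here.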

Additional observations from a re-analysis of the deposited data

How the results depend on the processing

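Of 47 alternative values, 43 stayed within 1.5 times the value reported or within the spread of the members. The other 4 came from the definitions. Antisense overlap numbered 770 members when exons had to overlap exons. Members with a coding start on the other strand within 1000 bases numbered 486 when starts on either side were counted before antisense overlap. The share of members with an open reading frame was 60.6% at 50 codons and 1.58% at 300 codons. Turning the members with CT to AC introns, added after seeing the data, gave 1472 antisense, 156 divergent and 1655 apart. No paired analysis was possible because the models carry no value per library. Depth limits could not be given, since the file holds no counts.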

Other observations

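Some members cannot be told apart by their sequence. The spliced sequence of 43 members was identical to that of another member, in 15 sets under 24 gene names, and 33 of the 43 were on chromosome X. The largest sets were copies of Gm2101 on chromosome X. The 677-base transcript was shared by Gm2101, Gm2117, Gm2165, Gm3669 and Gm14974, and the 764-base transcript by Gm2101, Gm2117, Gm2165, Gm2200 and Gm3669. Astx1a, Astx1b and Astx1c shared a transcript of 1150 bases, and Astx4a, Astx4b, Astx4c and Astx4d shared one of 1149 bases. These names were chosen after their values were seen, and a read from such a transcript has no unique place among the copies.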
